A study of Arabidopsis thaliana with 6 samples.

Results

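Abscisic acid (ABA) metabolism, signaling and dehydration genes were examined in *ap1/cal* shoot apices after treatment with sodium nitroprusside (SNP), a donor of nitric oxide. The set holds 43 named genes of the 24340 in the expression table. They were chosen by function: ABA synthesis and breakdown, the PYR/PYL receptors, clade A type 2C protein phosphatases, SnRK2 kinases, the ABF/ABI5 transcription factors, and dehydration genes. The rule names functions and no measured value, but it was written with earlier results of these data known. The 6 RNA-seq samples were 3 Mock and 3 SNP replicates, from inflorescence apices of *Arabidopsis thaliana* plants of the Columbia background that carry mutations in *APETALA1* and *CAULIFLOWER* in both groups. These plants over-proliferate inflorescence and young floral meristems, so the apices were not those of a wild type. Both groups received 0.025% Silwet for 24 h, without SNP (Mock) or with 1 mM SNP. SNP also carries iron and cyanide, and nitric oxide cannot be told apart from these here, since no sample received spent SNP.

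In the textbook pathway, ABA is made from carotenoids and inactivated by hydroxylation. Without the hormone, clade A phosphatases hold SnRK2 kinases inactive. ABA binds PYR/PYL receptors, which then bind and inhibit the phosphatases, and the freed kinases phosphorylate ABF/ABI5 factors, which bind the ABA-responsive element in promoters of dehydration genes. Many phosphatase genes are themselves induced by ABA and act as a brake, whereas several receptor genes are known to decline under ABA.

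Levels are in TPM, a transcript abundance corrected for gene length and sequencing depth, so they can be compared between genes. Differences between the groups are log2(TPM + 0.5) differences, SNP minus Mock, from limma fitted across the 18966 genes whose mean over the samples reached 0.5 TPM. The added 0.5 makes the difference of low genes smaller than their true ratio. A gene "rose" or "fell" where its p, adjusted over all tested genes, was under 0.05. Genes were also counted by the study's criterion, which asks for a 1.5-fold change and a p, not adjusted, under 0.01. Only these limits are the study's: here they were set on the limma differences and p-values, whereas the paper names DEGseq for its calls. An exact permutation test of 3 against 3 samples cannot give a p below 0.1. The p-values weigh each difference against the spread between these samples. For each gene, limma draws that spread toward the one of genes with similar levels.

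Depth lay between 51879529 and 99089579 reads on the listed genes per sample. Mock replicate 1 stood somewhat apart: its correlation with the other Mock replicates was 0.977 (log2 values across genes), against 0.991 between those 2 and 0.989 to 0.993 among the SNP replicates. The 4 shoot meristem markers summed to 275 to 326 TPM over all samples. Of these *UFO* rose, from a mean of 14.3 to 22.9 TPM (0.68, adjusted p = 0.0149, lost without SNP replicate 1 or 3 at 0.0656 and 0.0533), and the other 3 did not pass. The 5 mesophyll markers summed to 2754 to 3892 TPM in Mock and 3357 to 4282 TPM in SNP, and 1 of them, *CAB3*, fell (by 0.75, adjusted p = 0.019, lost without Mock replicate 3 or SNP replicate 3 at 0.0548 and 0.07). Guard cell markers summed to 5.60 to 9.84 TPM, none of the 3 tested having passed, and seed storage markers stayed below 0.04 TPM. Of the 4 vascular markers, 3 rose. *SUC2*, a sucrose transporter of phloem companion cells, was 24.7 ± 7.18 TPM in Mock and 50.9 ± 5.48 TPM in SNP (SD, n = 3), a difference of 1.07 (adjusted p = 0.0125, but 0.0538 without SNP replicate 3). The 3 xylem markers summed to 7.88 to 12.2 TPM in Mock and 17.8 to 29.7 TPM in SNP. Of these *VND7* and *XCP1* rose by 1.07 and 1.31 (adjusted p = 0.0114 and 0.00747), and *IRX3* did not pass (0.65, adjusted p = 0.097). The part of vascular cells in the changes below was not tested. In bulk tissue, fewer cells of a type and less RNA per cell cannot be told apart.

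Of the 43 genes, 41 were tested, and 21 of these changed, mostly upward. *HAI3* and *RD29B* had too little signal. At an adjusted p under 0.05, 18 rose and 3 fell (51.2% together), where 29.6% of all tested genes were called (16.6% higher and 13% lower). By the study's criterion 17 were higher and 3 lower (48.8%), against 16.9% of all tested genes (10.5% higher and 6.4% lower). At a limit of 2-fold with the same p, 11 were higher and none lower, against 7.77% of all tested genes (5.65% higher). Without Mock replicate 1, 23 rose and 3 fell, and 17 were higher and 1 lower by the criterion. In that fit, 1792 of all 19001 tested genes were higher and 1406 lower by the criterion. The groups did not overlap for 28 genes (68.3%, 24 with SNP above and 4 with SNP below), against 51.2% of all tested genes (29.2% above, 22% below). The median difference was 0.55 for the set (quartiles 0.09 and 1.02) and 0.06 for all tested genes (quartiles −0.21 and 0.34). Of the calls by the criterion, 85% were higher in the set and 62.1% among all tested genes. With samples scaled by their 75th percentile instead, 17 of the set stayed higher and 3 lower, while the share for all tested genes was 51.1%.

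**Figure D1:**
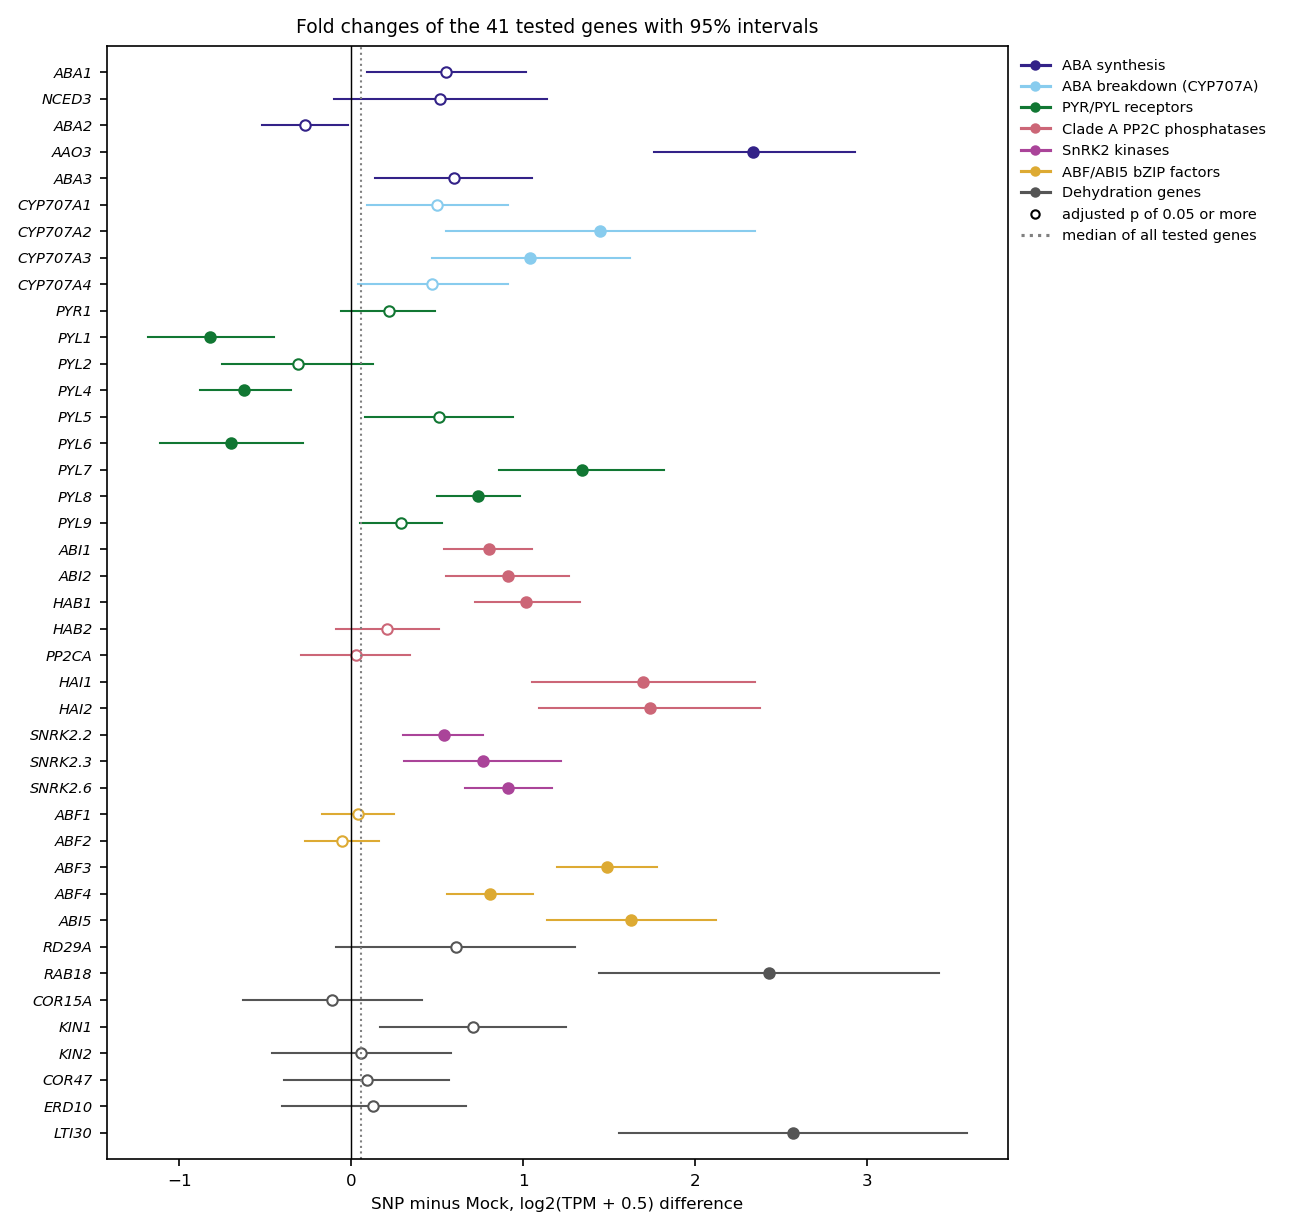
Differences of the 41 tested genes, SNP minus Mock, on the log2(TPM + 0.5) scale, with 95% intervals from limma; colours mark the roles, filled points an adjusted p under 0.05, and the dotted line the median of all tested genes (0.06). *LTI30* (2.57), *RAB18* (2.43) and *AAO3* (2.34) lie farthest to the right, and the receptors *PYL1*, *PYL4* and *PYL6* lie to the left of 0.

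Because ABF/ABI5 factors and cold- and drought-responsive DREB factors act through short promoter elements, the 250 bases before each gene start were taken from RefSeq TAIR10.1 and searched on both strands for ACGTG or CACGT (the core of the ABA-responsive element, a palindrome counted once) and for CCGAC or GTCGG (the core of the dehydration-responsive element). Of 27443 promoters of that length, 22.91% held the ABA-responsive core and 11.97% the dehydration-responsive core. In the set, 22 of 43 promoters (51.2%) held the first and 7 of 43 (16.3%) the second. At least 2 ABA-responsive cores stood in 11 of 43 (25.6%), against 4.98% of all promoters. The sequences shown here are those with the most copies in genes that moved, beside genes with as many copies that did not pass the test. Capitals mark the cores. *ABI5* (chr2:15207637-15207886, minus strand), *HAI2* (chr1:2282829-2283078, minus strand) and *PP2CA* (chr3:3585851-3586100, minus strand) hold 4 ABA-responsive cores each, and *PP2CA* also 1 dehydration-responsive core:
ABI5: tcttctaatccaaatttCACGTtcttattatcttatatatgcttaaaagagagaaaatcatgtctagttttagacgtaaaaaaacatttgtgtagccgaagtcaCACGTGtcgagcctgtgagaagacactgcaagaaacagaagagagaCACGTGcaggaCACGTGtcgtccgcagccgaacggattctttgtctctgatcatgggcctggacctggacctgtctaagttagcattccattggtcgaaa
HAI2: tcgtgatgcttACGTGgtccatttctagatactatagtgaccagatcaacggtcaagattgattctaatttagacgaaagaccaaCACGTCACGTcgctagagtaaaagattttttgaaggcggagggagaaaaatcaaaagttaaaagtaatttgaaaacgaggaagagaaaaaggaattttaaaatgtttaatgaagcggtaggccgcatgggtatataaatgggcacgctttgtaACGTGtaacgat
PP2CA: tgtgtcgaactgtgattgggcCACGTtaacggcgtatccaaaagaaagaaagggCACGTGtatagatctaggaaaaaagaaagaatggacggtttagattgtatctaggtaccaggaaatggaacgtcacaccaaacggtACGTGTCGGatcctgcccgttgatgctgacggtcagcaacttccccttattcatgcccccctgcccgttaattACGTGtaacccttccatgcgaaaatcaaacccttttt

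*LTI30* and *RD29A* hold 3 dehydration-responsive cores each and no ABA-responsive core. The stretch of *LTI30* (chr3:18940429-18940642, plus strand) ends where the neighbouring gene begins and is 214 bases long; that of *RD29A* (chr5:21240467-21240716, plus strand) is 250 bases long:
LTI30: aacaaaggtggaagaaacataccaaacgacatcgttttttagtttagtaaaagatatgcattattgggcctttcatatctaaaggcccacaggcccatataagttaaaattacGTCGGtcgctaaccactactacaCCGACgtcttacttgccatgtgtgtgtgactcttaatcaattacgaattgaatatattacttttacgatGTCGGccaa
RD29A: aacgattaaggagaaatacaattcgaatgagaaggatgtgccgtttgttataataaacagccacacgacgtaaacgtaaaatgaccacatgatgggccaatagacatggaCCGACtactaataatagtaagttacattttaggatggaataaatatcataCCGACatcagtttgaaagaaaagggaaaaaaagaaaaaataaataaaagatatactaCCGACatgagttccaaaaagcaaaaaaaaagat

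The window of *RAB18* lies inside a neighbouring gene on the other strand and held 3 ABA-responsive cores, shown as stretches of 25 bases at chr5:26519596-26519620, chr5:26519544-26519568 and chr5:26519450-26519474 on the minus strand:
RAB18 distal site: acgacgatgtACGTGtgtatgaaaa
RAB18 middle site: gaggagcattACGTGtcctgttagc
RAB18 proximal site: tgatatgaaCACGTacttggtatcg

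The cores stood in genes of each kind except those that fell. The ABA-responsive core stood in 9 of the 18 genes that rose, in 0 of the 3 that fell and in 11 of the 20 that did neither. The dehydration-responsive core stood in 2 of 18, 0 of 3 and 4 of 20. A match in this window describes letters only and is not a bound site.

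Among 5 synthesis genes, 1 rose and none fell, a share of 20% against the 29.6% called among all tested genes (16.6% higher). The one that rose was *AAO3* (AT2G27150), the aldehyde oxidase that makes ABA from abscisic aldehyde. It stood at 2.27, 4.73 and 4.41 TPM in Mock replicates 1 to 3 and at 18.3, 21.8 and 21.7 TPM in SNP. All SNP samples lay far above all Mock samples, with Mock replicate 1 the lowest of all. The difference was 2.34 ± 0.25 (SE, adjusted p = 0.000991), a fitted fold of 5.07. *AAO3* made up 5.52% ± 1.69 of the summed TPM of the synthesis genes in Mock and 21.2% ± 1.45 in SNP (SD, n = 3). Of its exon bases 13.79% overlap AT2G27160, a gene on the other strand that has no value in the expression table. Whether counting used strand is not given in the sources used here.

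The other synthesis genes did not pass. *ABA1* (AT5G67030), the zeaxanthin epoxidase, was the most abundant of them over all samples, at 19.8, 25.6 and 27.9 TPM in Mock and 29.4, 46.2 and 33.6 TPM in SNP. Its groups did not overlap, and the difference was 0.55 ± 0.20 (SE, adjusted p = 0.0734). *NCED3* (AT3G14440), the 9-cis-epoxycarotenoid dioxygenase whose cleavage step limits synthesis under drought, had 2.11 ± 0.751 TPM in Mock and 3.18 ± 0.749 TPM in SNP (SD, n = 3), a difference of 0.52 (adjusted p = 0.176) with overlapping groups. *ABA3* (AT1G16540), which adds sulfur to the molybdenum cofactor that *AAO3* needs, differed by 0.60 (adjusted p = 0.0567), with all SNP samples above all Mock samples. Its call depended on the setting. Among others, it passed with samples scaled by median-of-ratios or by their 75th percentile (adjusted p = 0.035 and 0.0386). *ABA2* (AT1G52340), the short-chain dehydrogenase that makes abscisic aldehyde, differed by −0.27 (adjusted p = 0.093), with all SNP samples below all Mock samples. Genes on the other strand, AT1G07803 and AT1G52330, together overlap 39.7% of its exon bases. AT1G52330 had 0.125 TPM in Mock and 0.148 TPM in SNP, and AT1G07803 was not looked up here. The summed level of the 5 synthesis genes was 68.0 ± 4.58 TPM in Mock and 97.1 ± 10.8 TPM in SNP.

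The 4 *CYP707A* genes encode ABA 8′-hydroxylases, which inactivate the hormone. Of these, 2 rose (50%, against 16.6% of all tested genes called higher) and none fell. All 4 mean levels were higher in SNP. *CYP707A2* (AT2G29090) had 1.01, 2.09 and 3.84 TPM in Mock and 5.46, 8.81 and 5.76 TPM in SNP. The Mock values were widely spread, yet the groups did not overlap. The difference was 1.45 ± 0.38 (SE, adjusted p = 0.0282). *CYP707A3* (AT5G45340) had 0.501, 0.781 and 1.32 TPM in Mock and 1.80, 2.46 and 2.5 TPM in SNP, again without overlap, and differed by 1.04 ± 0.24 (adjusted p = 0.0189). Both calls were lost when some single replicates were left out. Without SNP replicate 2 the adjusted p was 0.0939 for *CYP707A2* and 0.0644 for *CYP707A3*, without SNP replicate 3 it was 0.0713 and 0.0731, and without Mock replicate 2 it was 0.0675 and 0.0522. Without SNP replicate 1, *CYP707A2* alone was lost (adjusted p = 0.0624).

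The most abundant gene of the family, *CYP707A1* (AT4G19230), had 20.4, 20.5 and 14.8 TPM in Mock and 25, 31.5 and 22.8 TPM in SNP. All SNP samples were higher, but the difference of 0.50 ± 0.17 did not pass (adjusted p = 0.0678). *CYP707A4* (AT3G19270) differed by 0.47 (adjusted p = 0.0961). The family summed to 25.2 ± 1.36 TPM in Mock and 40.4 ± 7.27 TPM in SNP (SD, n = 3).

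**Figure D2:**
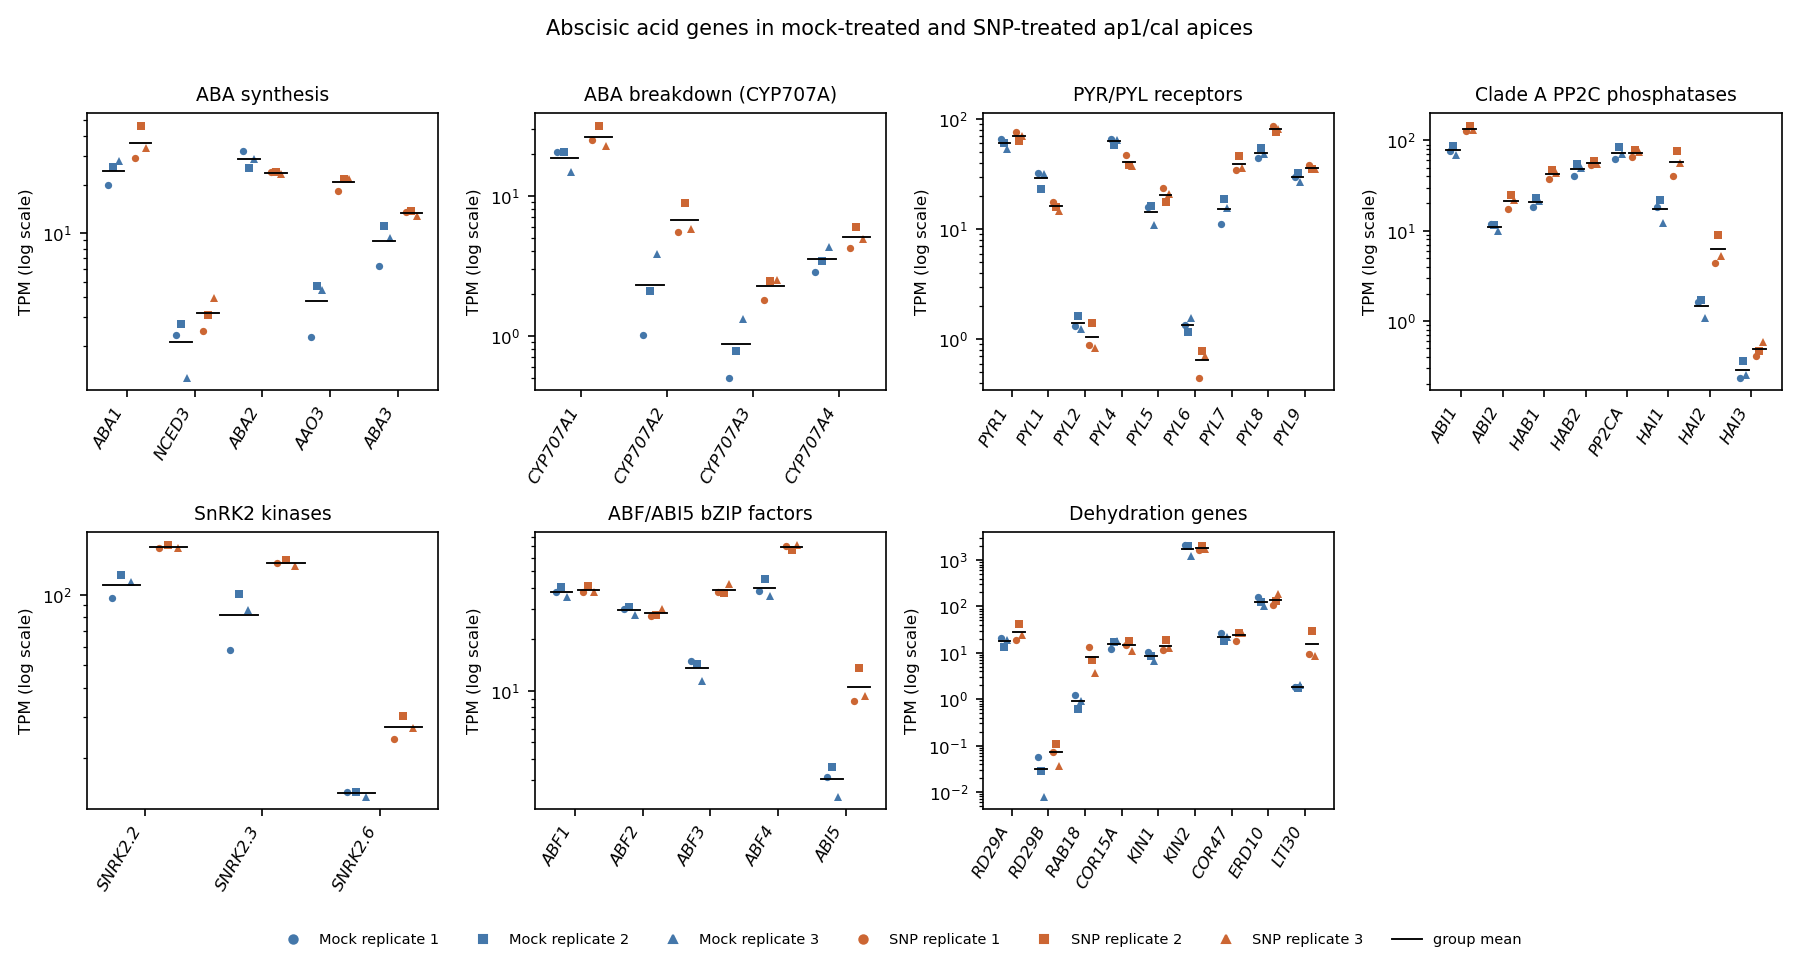
TPM of the 43 genes in every sample on log axes, one panel per role; symbols mark the replicate number, blue Mock, orange SNP, and the black line the group mean. *KIN2*, near 1772 TPM in Mock and 1802 TPM in SNP, exceeds every other gene of the set, and *LTI30* and *RAB18* have SNP samples that are spread apart but all above Mock.

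The receptors were the only role in which tested genes moved in both directions: of 9, 2 rose, 3 fell and 4 did neither. Those that rose were 22.2% and those that fell 33.3%, against 16.6% and 13% of all tested genes. *PYL7* (AT4G01026) had 11.1, 18.9 and 15.5 TPM in Mock and 34.7, 45.7 and 35.8 TPM in SNP. Every SNP sample was well above every Mock sample, and the difference was 1.34 ± 0.20 (SE, adjusted p = 0.00398). Genes on the other strand, AT4G01030 and AT4G03845, together overlap 49.68% of its exon bases. AT4G01030 had 3.38 TPM in Mock and 4.21 TPM in SNP and did not pass (0.36, adjusted p = 0.422). AT4G03845 was not looked up here. *PYL8* (AT5G53160), a receptor known for its role in root ABA responses, had 44.2, 54.1 and 48.0 TPM in Mock and 86.5, 76.8 and 81.8 TPM in SNP, without overlap. It was the most abundant receptor after SNP, and its difference was 0.74 ± 0.10 (adjusted p = 0.00267).

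The receptors that fell were *PYL1*, *PYL4* and *PYL6*. *PYL4* (AT2G38310) had the highest mean of all receptors in Mock, with 66.2, 57.8 and 64.0 TPM, and 46.8, 38.2 and 37.5 TPM in SNP. All SNP samples were below all Mock samples, and it fell by 0.62 on the log2 scale (SE 0.11, adjusted p = 0.00793). *PYL1* (AT5G46790) had 32.4, 22.9 and 31.9 TPM in Mock and 17.6, 16.0 and 14.7 TPM in SNP, also without overlap, and fell by 0.82 (SE 0.15, adjusted p = 0.00883). The lowly expressed *PYL6* (AT2G40330) had 1.34, 1.16 and 1.55 TPM in Mock and 0.448, 0.788 and 0.702 TPM in SNP, and fell by 0.70 (SE 0.18, adjusted p = 0.0248). Its groups did not overlap, but its lowest sample held 27 reads, and the call was lost without Mock replicate 3, SNP replicate 1 or SNP replicate 3 (adjusted p = 0.0795, 0.0847 and 0.0675).

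*PYR1* (AT4G17870), the most abundant receptor that did not pass, had 66.4, 60.7 and 52.9 TPM in Mock and 76.4, 62.8 and 69.7 TPM in SNP. Its groups overlapped, with a difference of 0.22 (adjusted p = 0.206). *PYL2* (AT2G26040), *PYL5* (AT5G05440) and *PYL9* (AT1G01360) differed by −0.31, 0.51 and 0.29 (adjusted p = 0.249, 0.073 and 0.0672). Grouped by the 3 sequence subfamilies of the receptors, a grouping made after the values were seen, *PYL7*, *PYL8* and *PYL9* summed to 93.5 ± 10.5 TPM in Mock and 157.0 ± 3.5 TPM in SNP (SD, n = 3). *PYL4*, *PYL5* and *PYL6* summed to 78.4 ± 4.48 and 62.0 ± 7.57 TPM, and *PYR1*, *PYL1* and *PYL2* to 90.5 ± 8.4 and 86.8 ± 7.44 TPM. Receptor transcripts as a whole went from 262 ± 8.57 to 305 ± 16.7 TPM. *PYL4* held 23.9% ± 1.9 of it in Mock and 13.3% ± 0.943 in SNP, and *PYL7* 5.8% ± 1.52 and 12.8% ± 2.48.

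Clade A phosphatases, the inhibitors of the kinases, rose in 5 of 7 tested cases (71.4%, against 16.6% of all tested genes) and fell in none. *ABI1* (AT4G26080), the most abundant, had 77.0, 86.7 and 69.1 TPM in Mock and 128, 145 and 131 TPM in SNP. No SNP sample came near the Mock range, and the difference was 0.80 ± 0.11 (SE, adjusted p = 0.00257). Its close relative *ABI2* (AT5G57050) had 11.8, 11.5 and 9.97 TPM in Mock and 17.4, 24.9 and 22.1 TPM in SNP. It too was higher in every SNP sample, by 0.91 ± 0.15 (adjusted p = 0.00562). *HAB1* (AT1G72770) had 18.1, 23.2 and 21.3 TPM in Mock and 37.8, 47.6 and 43.2 TPM in SNP, without overlap, and rose by 1.02 ± 0.13 (adjusted p = 0.00198).

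The largest phosphatase differences were in the HAI genes, which are named for being highly ABA-induced. *HAI1* (AT5G59220) had 18.3, 21.6 and 12.1 TPM in Mock and 40.8, 76.5 and 56.2 TPM in SNP. The SNP samples were spread but all above Mock, with a difference of 1.70 ± 0.28 (SE, adjusted p = 0.00526). *HAI2* (AT1G07430), whose promoter with 4 ABA-responsive cores is printed above, had 1.6, 1.69 and 1.07 TPM in Mock and 4.34, 9.04 and 5.26 TPM in SNP. The order of the SNP replicates was that of *HAI1*, replicate 2 being the highest, and the difference was 1.74 ± 0.27 (adjusted p = 0.00458). *HAI3* (AT2G29380) was not tested, with 14 to 32 reads per sample. Its mean was 0.282 ± 0.0687 TPM in Mock and 0.484 ± 0.0835 TPM in SNP (SD, n = 3), and its groups did not overlap.

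*PP2CA* (AT3G11410), with as many ABA-responsive cores in its promoter as *HAI2*, had 61.9, 84.4 and 70.0 TPM in Mock and 65.9, 78.2 and 75.1 TPM in SNP. The SNP values lay within the Mock range, and the difference was 0.03 (95% interval −0.29 to 0.34, adjusted p = 0.896), with a sign that turned under other scalings. *HAB2* (AT1G17550) differed by 0.21 (adjusted p = 0.248). In Mock, *PP2CA* held 28.8% ± 1.65 of the phosphatase transcripts and *ABI1* 31.2% ± 2.1 (SD, n = 3). In SNP they held 18.7% ± 0.858 and 34.5% ± 1.99, and *HAI1* went from 6.91% ± 1.51 to 14.5% ± 2.81.

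All 3 SnRK2 kinases that ABA activates most strongly rose, where 16.6% of all tested genes were called higher. *SNRK2.6* (AT4G33950), also called *OST1* and known from stomatal closure, had 14.4, 14.4 and 13.7 TPM in Mock and 24.3, 30.4 and 27.0 TPM in SNP. The Mock samples were nearly equal and all SNP samples higher, by 0.91 ± 0.11 (SE, adjusted p = 0.00152). Guard cell markers summed to 7.42 ± 1.97 TPM in Mock and 9.16 ± 0.768 TPM in SNP (SD, n = 3). None of those tested passed, and the part of guard cells in the level of *SNRK2.6* was not tested. *SNRK2.2* (AT3G50500) had 97, 121 and 113 TPM in Mock and 159, 163 and 158 TPM in SNP, without overlap, and rose by 0.54 ± 0.10 (adjusted p = 0.00831), below the 1.5-fold limit. *SNRK2.3* (AT5G66880) had 58.1, 101 and 86.0 TPM in Mock and 136, 141 and 132 TPM in SNP. Mock replicate 1 was its lowest sample, and the groups did not overlap. It rose by 0.77 ± 0.19 (adjusted p = 0.0239), a call that was lost without Mock replicate 3 (adjusted p = 0.052) or without SNP replicate 1, 2 or 3 (0.0751, 0.0769 and 0.0714).

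The summed levels of the core signaling proteins' transcripts are given as a description. Phosphatases went from 249 ± 30.8 to 393 ± 46.7 TPM, 1.57 times the Mock mean, and kinases from 206 ± 34 to 323 ± 9.2 TPM, 1.56 times (SD, n = 3). Receptors reached 1.16 times the Mock mean. The phosphatase to receptor ratio was 0.854, 1.07 and 0.925 in Mock and 1.07, 1.5 and 1.31 in SNP, so that SNP replicate 1 met the highest Mock sample. The kinase to phosphatase ratio was 0.827 ± 0.0866 in Mock and 0.829 ± 0.0808 in SNP. These sums are of transcripts and say nothing of protein or activity.

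**Figure D3:**
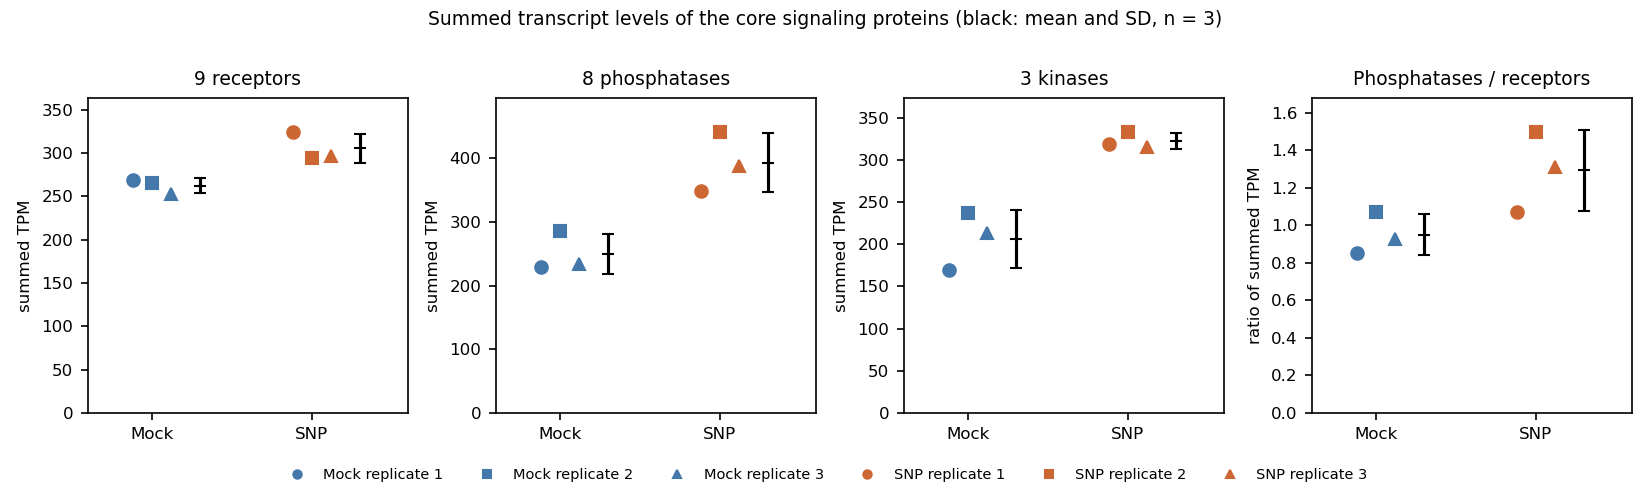
Summed TPM of the 9 receptors, 8 phosphatases and 3 kinases and the phosphatase to receptor ratio in every sample, from 0, with the mean and SD of each group (n = 3) in black. All SNP samples exceed all Mock samples in the 3 sums, and the kinase sums of SNP lie close together (316 to 334 TPM).

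Of the 5 ABF/ABI5 bZIP factors, 3 rose (60%, against 16.6% of all tested genes) and 2 did not pass. *ABF3* (AT4G34000) had the smallest adjusted p of the set. It had 15, 14.4 and 11.5 TPM in Mock and 37.7, 37.3 and 42.0 TPM in SNP. The samples within each group were close and the groups far apart, with a difference of 1.49 ± 0.12 (SE, adjusted p = 0.000391). *ABF4* (AT3G19290) had 38.5, 45.2 and 35.7 TPM in Mock and 70.8, 67.1 and 71.4 TPM in SNP, without overlap, and rose by 0.81 ± 0.11 (adjusted p = 0.00222). Genes on the other strand, AT3G03815 and AT3G19300, together overlap 29.13% of its exon bases. AT3G19300 had a difference of −0.20 (adjusted p = 0.22), and AT3G03815 was not looked up here. *ABI5* (AT2G36270), best known from seeds and germinating seedlings, had 3.15, 3.58 and 2.4 TPM in Mock and 8.67, 13.6 and 9.39 TPM in SNP. All SNP samples were above Mock, by 1.63 ± 0.21 (adjusted p = 0.00201). The 3 seed storage markers stayed near 0, and the part of seed tissue in the level of *ABI5* was not tested.

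The paralogs *ABF1* (AT1G49720) and *ABF2* (AT1G45249) did not pass. *ABF1* had 38.1, 40.4 and 35.6 TPM in Mock and 37.9, 41.3 and 38.0 TPM in SNP, overlapping groups with a difference of 0.04 (95% interval −0.17 to 0.25, adjusted p = 0.773) whose sign turned under other scalings. *ABF2* differed by −0.05 (adjusted p = 0.679). In Mock *ABF1* held 30.7% ± 0.733 and *ABF3* 11% ± 0.951 of the transcripts of the 5 factors (SD, n = 3). In SNP the shares were 20.9% ± 1.1 and 20.8% ± 1.04. The factors summed to 124 ± 10.8 TPM in Mock and 187 ± 4.28 TPM in SNP.

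Of the 8 dehydration genes tested, 2 rose and 6 did not pass, a share of 25% against the 29.6% called among all tested genes (16.6% higher). *RAB18* (AT5G66400), a dehydrin induced by ABA, had 1.21, 0.609 and 0.924 TPM in Mock and 13.3, 6.92 and 3.63 TPM in SNP. The SNP samples differed widely from each other, but the lowest of them was above the highest Mock sample. The difference was 2.43 ± 0.42 (SE, adjusted p = 0.00644). *LTI30* (AT3G50970), another dehydrin, had 1.83, 1.73 and 2.04 TPM in Mock and 9.58, 29.3 and 8.68 TPM in SNP. SNP replicate 2 was the highest by far for *LTI30*, whereas SNP replicate 1 was the highest for *RAB18*. The difference of *LTI30* was 2.57 ± 0.43 (adjusted p = 0.00565), and at least 2.02 whichever replicate was left out.

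*RD29A* (AT5G52310), the widely used drought and cold reporter with 3 dehydration-responsive cores like *LTI30*, had 20.9, 13.6 and 19.1 TPM in Mock and 19.2, 41.9 and 24.6 TPM in SNP. SNP replicate 1 lay inside the Mock range, and the difference of 0.61 ± 0.29 did not pass (adjusted p = 0.162). Its tandem neighbour *RD29B* (AT5G52300) was not tested, with 1 to 7 reads per sample. *KIN1* (AT5G15960), a small cold- and ABA-induced protein, differed by 0.71 (adjusted p = 0.0551), with groups that did not overlap.

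*KIN2* (AT5G15970), the neighbour and close relative of *KIN1*, was the most abundant gene of the set. It had 2111, 1985 and 1221 TPM in Mock and 1643, 2031 and 1732 TPM in SNP. The groups overlapped fully, with a difference of 0.06 (95% interval −0.46 to 0.58, adjusted p = 0.862) whose sign turned with samples scaled by their 75th percentile. No stretch of 75 bases, the read length, was shared between *KIN1*, *KIN2* or any other gene of the set and another gene. The dehydrins *COR47* (AT1G20440) and *ERD10* (AT1G20450) and the chloroplast protein gene *COR15A* (AT2G42540) differed by 0.09, 0.13 and −0.11 (adjusted p = 0.763, 0.684 and 0.736). The 9 dehydration genes summed to 1966 ± 506 TPM in Mock and 2048 ± 236 TPM in SNP, and without *KIN2* to 194 ± 31.7 and 246 ± 43.8 TPM (SD, n = 3).

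Within the SNP group, 1 replicate was often on top. Of the 18 genes that rose, SNP replicate 2 had the highest SNP value in 13 (72.2%), against 42.1% of all genes that rose. The same replicate had the highest sum of xylem markers (29.7 TPM) of all samples, and the part of this in the genes' levels was not tested. Without SNP replicate 2, 15 of the set rose and 3 fell at an adjusted p under 0.05. By the criterion, 14 of the set were then higher and 2 lower, against 1749 and 1195 of all 18940 tested genes.

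Other genes of the pathway, in lists of 67 genes, 64 of which were in the table, were counted in the same fit. Of 47 tested, 22 rose (46.8%), 6 fell (12.8%) and 19 did neither, where 16.6% of all tested genes were called higher and 13% lower. The median difference was 0.50. Of the 28 calls, 17 were kept whichever replicate was left out. Among the genes that fell, only *PYL11* kept its call, and the other kept calls were of genes that rose. The counts per list below are small and stand against the same shares of all tested genes. Of 5 tested ABA transporters 4 rose. *DTX50*, an ABA exporter, had 0.685 ± 0.0609 TPM in Mock and 11.5 ± 3.03 TPM in SNP (SD, n = 3), a difference of 3.31 (adjusted p = 9.75e-05). *NPF4.6*, an ABA importer active at vascular tissue, rose by 1.61 (adjusted p = 0.000725).

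Of 5 genes of ABA conjugation and release 3 rose and 1 fell. The glucosyltransferase genes *UGT71B6* and *UGT71B7*, whose products store ABA as its glucose ester, rose by 2.62 and 1.56 (adjusted p = 0.000377 and 0.00115). *BG1*, a glucosidase that frees ABA from that ester, had 3369 ± 832 TPM in Mock and 1695 ± 480.4 TPM in SNP, a difference of −1.0 (adjusted p = 0.0271). The call of *BG1* was lost without Mock replicate 3, SNP replicate 1 or SNP replicate 2 (adjusted p = 0.0832, 0.0933 and 0.0827). The single further receptor tested, *PYL11*, fell by 0.69 (adjusted p = 0.00892). Its level was low, at 1.79 TPM in Mock and 0.923 TPM in SNP, with 17 to 75 reads per sample.

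Among 6 tested genes of the other SnRK2 kinases, 2 rose and 1 fell, *SNRK2.8* and *SNRK2.10* rising by 1.04 and 0.92 (adjusted p = 0.00447 and 0.000858). The phosphatase *AHG1*, on the same list, was not tested, with 0 to 5 reads per sample. Of 10 further transcription factors and regulators 6 rose and none fell. *HB7*, a homeodomain factor induced by ABA and drought, had 5.32 ± 1.15 TPM in Mock and 39.1 ± 10.4 TPM in SNP (SD, n = 3), a difference of 2.75 (adjusted p = 0.000312), and *AFP1*, which binds *ABI5* protein and restrains it, rose by 1.84 (adjusted p = 0.00133).

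Of 5 tested CBF and DREB2 factors 2 rose and 1 fell, *DREB2A* and *DREB2C* rising by 1.70 and 1.74 (adjusted p = 0.00106 and 0.0343). *DREB2C* had 6.48, 18.8 and 4.29 TPM in SNP, replicate 2 being the highest. Its difference was 1.16 without that replicate, and its call was lost without Mock replicate 2, Mock replicate 3 or SNP replicate 1 (adjusted p = 0.0653, 0.101 and 0.0707). Among 13 further dehydrin, LEA and dehydration genes 5 rose and 2 fell, with a median of 0.03. The linker histone gene *HIS1-3*, induced by drought, had 9.45 ± 6.47 TPM in Mock and 121 ± 11.4 TPM in SNP, a difference of 3.88 (adjusted p = 0.00243). *LEA7* rose by 1.75 (adjusted p = 0.0212) from a level of 0.0847 TPM in Mock, and *HIRD11*, a dehydrin with 1462 ± 441 TPM in Mock, fell by 0.75 (adjusted p = 0.0309). The call of *LEA7* was lost without Mock replicate 2 or 3 (adjusted p = 0.0517 and 0.0642), and without SNP replicate 2 the gene was below the filter. That of *HIRD11* was lost without SNP replicate 1, 2 or 3 (adjusted p = 0.0778, 0.0928 and 0.0959).

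**Figure D4:**
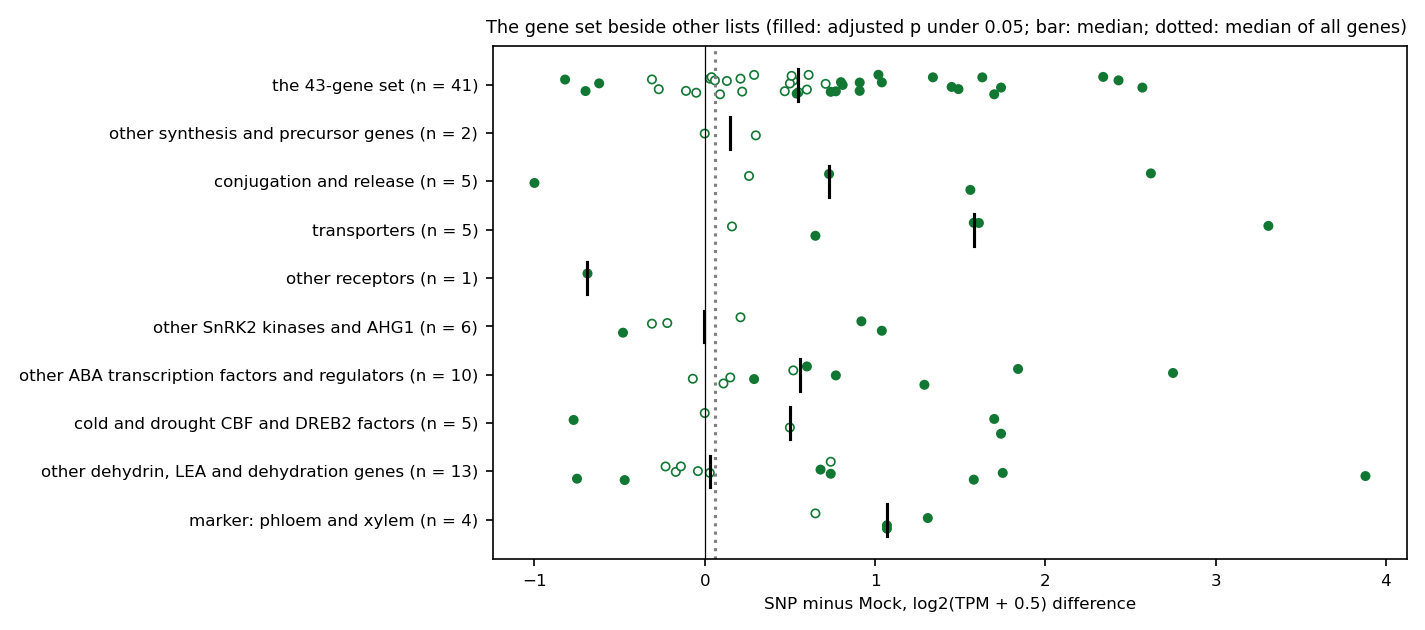
Differences of the set and of the other lists on the log2(TPM + 0.5) scale, 1 point per tested gene, filled at an adjusted p under 0.05, with the median of each list as a bar and that of all tested genes as a dotted line. The transporters have the highest median of the ABA lists (1.58), the further dehydration genes one near that of all genes (0.03), and the 4 phloem and xylem markers lie above 0.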

How the data were processed

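RNA-seq was analysed for 3 Mock and 3 SNP samples. The authors made strand-specific poly(A) libraries, sequenced 75-base reads, mapped them with STAR to TAIR10 and deposited 1 TPM column per replicate, over 24340 genes. The counting tool, its strand setting and the gene lengths are not given in the sources used here. The authors also deposited the log2 fold change, p-value and adjusted p-value of their own comparison, which were not used. Depth was read from TPM multiplied by TAIR10.1 exon length, which gave whole reads for 99.39% of values (tolerance 0.05).

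Genes whose mean reached 0.5 TPM were tested with limma 3.58.1 (R 4.3.3; lmFit, eBayes with a trend, no block) on log2(TPM + 0.5), with Benjamini-Hochberg adjustment over 18966 genes. The script was tested on simulated data, in which 200 of 18966 genes were changed by 1 on the log2 scale. Of these, 131 (65.5%) were called at an adjusted p under 0.05, beside 7 calls on unchanged genes. The simulated share of changed genes was not that of the data. A gene that did not pass is thus not shown to be unchanged. The per-sample values named are those of every gene called at an adjusted p under 0.05 and, in each role with such a gene, of the most abundant gene not called. Those of *RD29A*, shown for its promoter, were added after the values were seen, and so were the 6 markers named. Others of the lists are named when past the criterion, at most the 2 largest in each direction per list. The members and lists were chosen with earlier results of these data known. All 43 identifiers matched RefSeq TAIR10.1. Tables and figures were made with Python 3.11.15, numpy 2.4.6, pandas 2.3.3 and matplotlib 3.10.9.

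Alternatives were scaling by the 75th percentile or by median-of-ratios, a pseudocount of 1 or 0.1, a mean of 1 TPM as the filter or none, a robust eBayes or one with no trend, the replicate number as a block, a correction of each sample for exon length (lowess span 0.3), leaving out each replicate, and a fold limit of 2.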

Additional observations from a re-analysis of the deposited data

How the results depend on the processing

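Of the 21 genes that rose or fell, 17 kept their call in all 16 settings run for single genes; *CYP707A2*, *CYP707A3*, *PYL6* and *SNRK2.3* lost it when some single replicates were left out, and *PYL6* was also not tested with a mean of at least 1 TPM as the filter. Over 655 comparisons of a gene with a setting, 606 gave the same answer, 18 gained a call, 14 lost one and 17 turned sign, all of the last in genes that did not pass. With a fold limit of 2, the criterion was met by 11 genes of the set, all higher, by 14 of the other lists and by 1474 of all tested genes. Leaving out each replicate gave 15 to 20 genes of the set past the criterion, 17 to 26 at an adjusted p under 0.05 (fewest without SNP replicate 3, most without Mock replicate 1), 18 to 20 of the other lists and 2716 to 3358 of all genes. The sign turned for *PP2CA* to −0.03 (median-of-ratios scaling), −0.06 (75th percentile scaling) and −0.01 (exon length trend removed), for *ABF1* to −0.02 and −0.05 under these scalings, and for *KIN2* to −0.03 (75th percentile scaling). Leaving out a replicate gave −0.08 to 0.15 for *PP2CA*, −0.01 to 0.08 for *ABF1*, −0.29 to 0.06 for *COR15A*, −0.19 to 0.20 for *KIN2*, −0.05 to 0.28 for *COR47* and −0.07 to 0.30 for *ERD10*. Scalings moved the median of all genes by at most −0.0867.

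The deviations of same-numbered samples from their group means correlated at 0.304, −0.002 and −0.091, so the numbers were not taken as pairs. With the replicate block, 20 genes of the set passed the criterion, 25 of the other lists and 3457 of all genes, and 25 of the set passed at an adjusted p under 0.05; *ABA1*, *ABA3*, *CYP707A1* and *KIN1* were added (adjusted p = 0.0276, 0.0466, 0.0256 and 0.0446). With the exon length trend removed, 25 of the set also passed at an adjusted p under 0.05. *ABA1* and *ABA3* were among those added (adjusted p = 0.044 and 0.00981). By the criterion, 21 of the set and 3360 of all genes then passed. Without the filter on low values, *HAI3* had a difference of 0.33 (adjusted p = 0.0495). Within the set, counting error is largest for *RD29B* (1 to 7 reads per sample) and *HAI3* (14 to 32). *PYL6*, *RAB18*, *PYL2* and *CYP707A3* had as few as 27, 32, 40 and 41 reads in a sample.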
